A study of Drosophila melanogaster with 12 samples.

Results

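The genes described here carry lipid between larval tissues. They are the lipoprotein genes *apolpp* and *Apoltp*, the lipid-loading gene *Mtp*, and the receptor genes *LpR1* and *LpR2*. They were chosen by name, and all 5 were found among the 24134 genes of the table. RNA was sequenced from mid-L2 *Drosophila melanogaster* larvae in 4 groups of 3 samples. These were fat bodies of *dERR* mutants (*ERR[1/2]*), fat bodies of controls (*ERR[1/+]*), whole mutant larvae and whole control larvae. Per the labels, larvae grew for 60 h at 25 °C on yeasted molasses agar, one passage of the study's methods gives a somewhat later age for the dissected larvae, and the stocks had a *w1118* background. Every animal carried the *ERR[1]* allele. Mutants carried *ERR[2]* as the second allele in every cell, so that the fat bodies came from animals that were mutant in other tissues too. The methods describe tissue pooled from sets of dissected larvae and call these sets technical replicates, so the p-values measure the spread between these samples, which may be technical.

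In insects, lipid travels through the hemolymph in lipophorin, a lipoprotein made by the fat body, the organ that stores triglyceride and does much of what liver and adipose tissue do in mammals. *apolpp* encodes apolipophorin, the precursor that is cleaved into the scaffold proteins of lipophorin. *Mtp* encodes microsomal triacylglycerol transfer protein, which loads lipid onto these proteins in the endoplasmic reticulum of the fat body. *Apoltp* encodes the scaffold of lipid transfer particle, a second lipoprotein that moves lipid between lipophorin and tissues such as the gut. LpR1 and LpR2 are lipophorin receptors of the LDL receptor family and act in the uptake of neutral lipid by tissues that receive lipophorin.

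Gene positions were taken from Ensembl 115 on the BDGP6.54 assembly. *apolpp* (FBgn0087002) lies on the plus strand of chromosome 4 from 1060969 to 1077273, with 4 annotated transcripts of 10287 to 11356 nt that all code for 3351 amino acids. *Apoltp* (FBgn0032136) lies on the plus strand of 2L from 9634179 to 9656026, with 1 transcript of 20 exons and 4333 codons. *Mtp* (FBgn0266369) is compact, with 6 exons and 886 codons on the minus strand of 2L from 20919094 to 20922876. *LpR2* (FBgn0051092, 3R from 25698727 to 25740465) and *LpR1* (FBgn0066101, 3R from 25741348 to 25763105) are neighbours on the minus strand, separated by 882 bases with no gene between them. They have 9 and 10 annotated transcripts, so a gene-level value sums many isoforms, and reads from stretches the receptors share could be split between them. *apolpp* overlaps exons of *Zyx* on the opposite strand, and the libraries were made with a stranded kit.

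Values are regularized log2 values (rlog) deposited by the authors, which shrink each gene toward its mean over the samples and understate changes of weakly expressed genes. The number of reads in each sample is unknown from these values. A gene was tested if its mean reached 3.32 (a count of 10 on the log2 scale) in any of the 4 groups, and the 10069 such genes were fitted together in limma, and adjusted p-values are Benjamini-Hochberg values over all of them. The 5 genes all passed this filter. The median replicate SD of the genes tested was 0.209 in mutant and 0.223 in control fat bodies, and 0.164 in mutant and 0.134 in control whole animals. Control fat body replicate 7 stood furthest from its group and had the lowest array weight in limma (0.246). Of 12 gut marker genes, all 12 had a mean below 3.32 in fat bodies of both genotypes. Of 11 fat body marker genes, *Fbp1*, *Fbp2* and *Lsp2* had means below 3.32 in all 4 groups, and the summed level of the list, led by *FASN1*, was 18.1 to 18.5 in mutant and 17.6 to 18.8 in control fat bodies. Its members moved in both directions. *FASN1* (18.21 in mutants and 17.43 in controls), *AkhR* (11.97 and 10.75) and *sug* (10.17 and 8.60) rose in mutant fat bodies, while *Lsp1beta* (10.27 and 14.91), *Lsp1gamma* (−0.25 and 10.21) and *Tsf1* (3.37 and 6.72) fell. *Lsp1alpha* averaged 2.43 and 6.09 and did not pass the test (limma adjusted p = 0.15). Summed muscle markers were at 11.6 to 11.8 in mutant and 11.5 to 12.3 in control fat bodies, against 19.0 to 19.1 in mutant and 18.7 to 19.0 in control whole animals. In fat bodies this sum was led by *Tm1* (means of 11.21 in mutants and 10.99 in controls), while *Mhc* was at 6.6 and 6.7. The transcript of the mutated gene, listed as *ERR*, was still present, at 8.25 to 8.40 in mutant and 8.29 to 9.24 in control fat bodies, and at 8.01 to 8.28 in mutant and 8.16 to 8.39 in control whole animals. Its groups overlapped in both tissues, so it does not check the labels. In fat bodies the overlap came from control replicate 7 alone, whose *ERR* value of 8.29 lay within the mutant range, against 9.11 and 9.24 in the other controls. Without this sample *Mtp* changed by −0.69 (adjusted p = 0.011) and *LpR1* by 1.09 (adjusted p = 0.0096) in fat bodies.

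In fat bodies, *Mtp* fell and *LpR1* rose in *dERR* mutants, while *apolpp*, *Apoltp* and *LpR2* did not pass the test. These were 2 of 5 genes at an adjusted p under 0.05, where 22.3% of all genes tested passed. None of the 5 passed the stricter treat test of limma, in which the change must exceed 1 on the log2 scale and which 3.18% of all genes passed. It could call none of them, since all 5 estimates were below 1 in size. In whole animals none of the 5 passed at an adjusted p under 0.05, where 3.29% of all genes did, and 1 of the 5 (*Mtp*) had an unadjusted p under 0.05 in limma. The treat test, passed by 1.23% of all genes there, could call none of them, since these estimates were below 1 in size too.

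**Figure D1:**
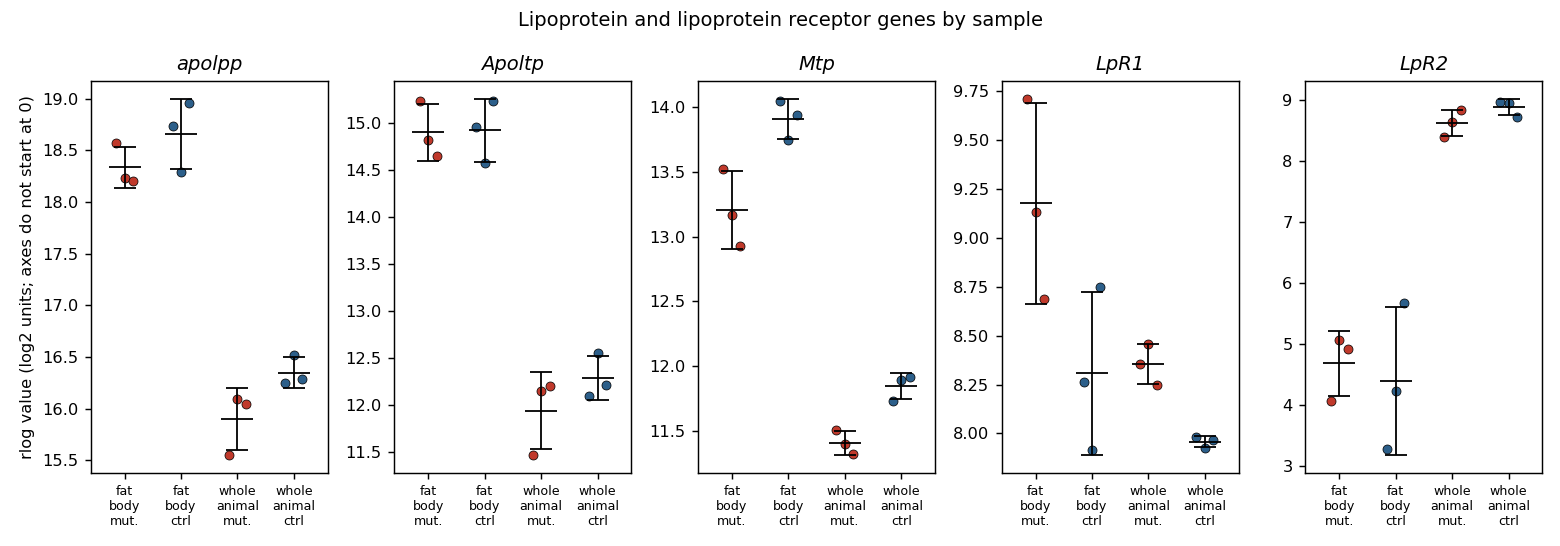
Rlog value in log2 units (y axis, a scale per gene that does not start at 0) of each gene in every sample, in mutant (red) and control (blue) fat bodies and whole animals. Points are samples, the wide tick is the group mean and the bar is 1 SD (n = 3). *apolpp*, *Apoltp* and *Mtp* stand higher in fat bodies, *LpR2* stands higher in whole animals, and *Mtp* is lower in all mutant samples than in any control sample of its tissue.

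*apolpp*, the lipophorin precursor, was at 18.57, 18.24 and 18.21 in mutant fat bodies (replicates 1, 2 and 4), against 18.73, 18.29 and 18.96 in control fat bodies (replicates 5, 6 and 7). The groups overlapped, with mutant replicate 1 above control replicate 6. The change of −0.32 on the log2 scale (standard error 0.23, 95% interval −0.83 to 0.18, limma adjusted p = 0.36) was not larger than the spread between samples. It was −0.51 without control replicate 6 and −0.18 without control replicate 7. With fat bodies fitted alone its standard error was 0.63 and the limma adjusted p 0.78. Its replicate SDs there were only 0.20 in mutants and 0.34 in controls, so this larger standard error comes from limma's variance moderation. In whole animals *apolpp* was at 15.55, 16.10 and 16.05 in mutants, against 16.24, 16.52 and 16.28 in controls. All 3 mutant samples lay below all 3 control samples, as groups did not overlap for 27.1% of all genes in whole animals. Mutant replicate 1 lay lowest, but the change of −0.45 on the log2 scale (standard error 0.23, 95% interval −0.95 to 0.05) had an adjusted p of 0.54. Without mutant replicate 1 it was −0.28. In whole larvae, fewer fat body cells and less RNA per fat body cell cannot be told apart. The summed level of the fat body markers overlapped between the genotypes, at 15.62 to 15.96 in mutant and 15.68 to 16.05 in control whole animals. Within that list *FASN1* averaged 15.36 in mutants and 14.61 in controls and rose, *Lsp1gamma* (−0.04 and 11.01) fell, and *Lsp1beta* (12.61 and 14.60) and *Lsp1alpha* (4.88 and 8.63) did not pass the test (adjusted p = 0.62 and 0.42). The summed level of 7 haemocyte markers did not overlap, at 11.49 to 11.63 in mutant and 11.83 to 12.36 in control whole animals, with lower means in mutants for *Hml*, *He*, *Pxn*, *PPO1* and *PPO2* and higher means for *NimC1* and *eater*. The part of either cell type in the values was not tested.

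*Apoltp*, the scaffold of lipid transfer particle, was at 15.23, 14.82 and 14.64 in mutant fat bodies, against 14.96, 14.57 and 15.23 in control fat bodies. The highest samples of both groups were nearly equal, and the mean difference was close to 0 (log2 fold change −0.02, 95% interval −0.55 to 0.50, limma adjusted p = 0.96). Its sign depended on the samples used. In whole animals the values were 11.47, 12.14 and 12.20 in mutants, against 12.10, 12.55 and 12.21 in controls. Mutant replicate 1 was the lowest sample, as for *apolpp*, and the other mutant samples lay within the control range. The log2 fold change was −0.35 (standard error 0.24, adjusted p = 0.74) and −0.11 without mutant replicate 1.

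*Mtp*, which encodes the protein that lipidates both lipoproteins, had the clearest change of the set. It was at 13.53, 13.17 and 12.93 in mutant fat bodies, against 14.05, 13.75 and 13.94 in control fat bodies. All 3 mutant fat bodies lay below all 3 controls, and the groups did not overlap, in one direction or the other, for 40.0% of all genes tested in this tissue. *Mtp* fell by 0.71 on the log2 scale (standard error 0.14, 95% interval −1.01 to −0.40, limma adjusted p = 0.0037), which is 1.63-fold lower in mutants. Leaving out single samples gave log2 fold changes from −0.87 to −0.57 and adjusted p-values from 0.00046 to 0.017. With fat bodies fitted alone the adjusted p was 0.052, and over the other alternatives it ran from 0.0031 to 0.021, apart from the treat test (adjusted p = 1). That test cannot call an estimate below 1 in size.

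In whole animals *Mtp* was at 11.50, 11.39 and 11.32 in mutants, against 11.73, 11.89 and 11.91 in controls. The groups did not overlap, as for 27.1% of all genes in whole animals, and the samples within each group were close together. The log2 fold change was −0.44 (standard error 0.14, 95% interval −0.75 to −0.13) with an adjusted p of 0.16 in the model of all samples. It passed at an adjusted p of 0.021 with whole animals fitted alone, at 0.0032 with array weights, and at 0.047 without fat body mutant replicate 1. Over the other alternatives the adjusted p ran from 0.073 to 1.

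*LpR1*, a lipophorin receptor gene, was at 9.71, 9.13 and 8.69 in mutant fat bodies, against 8.26, 7.91 and 8.75 in control fat bodies. Mutant replicate 4 lay just below control replicate 7, so the groups overlapped by this pair alone. *LpR1* rose by 0.87 on the log2 scale (standard error 0.25, 95% interval 0.32 to 1.42, limma adjusted p = 0.028), or 1.83-fold higher in mutants. This call did not hold without control replicate 5 (adjusted p = 0.073), control replicate 6 (0.098), mutant replicate 1 (0.081) or mutant replicate 2 (0.061), where the log2 fold change ranged from 0.60 to 0.89. It was also lost without the filter on low values (adjusted p = 0.12) and with fat bodies fitted alone (0.15). The treat test (adjusted p = 1) could not make the call, since the estimate was below 1. Under the other alternatives the call held with adjusted p-values from 0.0078 to 0.043.

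The fat body samples with the most *LpR1* in their groups were mutant replicate 1 and control replicate 7. These samples also had the most RNA of the 6 gonad markers, whose summed level was 8.17, 3.33 and 5.49 in mutant fat bodies (replicates 1, 2 and 4), against 3.85, 6.14 and 8.99 in control fat bodies (replicates 5, 6 and 7). The larval gonads are embedded in the fat body. The remaining samples went the other way. Control replicate 5 had more *LpR1* but less gonad RNA than control replicate 6, as did mutant replicate 2 beside mutant replicate 4. Mutant replicate 1 and control replicate 7 were also highest in their groups for *apolpp* and *Apoltp*. The summed gonad level overlapped between the genotypes, and its part in the *LpR1* values was not tested. The oenocyte genes *Cyp4g1*, *FarO* and *eloF* had means below 1 in fat bodies of both genotypes. The summed level of the 4 oenocyte genes, carried there by *svp*, did not overlap, at 10.01 to 10.11 in mutant and 10.45 to 10.60 in control fat bodies. Groups did not overlap for 40.0% of all genes in this tissue. *svp* averaged 10.06 in mutant and 10.51 in control fat bodies, above its means of 8.14 and 8.36 in whole animals.

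In whole animals *LpR1* was at 8.36, 8.46 and 8.25 in mutants, against 7.98, 7.93 and 7.97 in controls. The control samples were nearly equal and all mutant samples lay above them, by 0.40 on average on the log2 scale (standard error 0.25, 95% interval −0.15 to 0.94, adjusted p = 0.69). In whole animals 27.1% of all genes had groups that did not overlap. With whole animals fitted alone, where the small spread of these samples is not pooled with that of fat bodies, the standard error was 0.09 and the adjusted p 0.044. Over the other alternatives the adjusted p ran from 0.057 to 1.

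*LpR2*, the neighbouring receptor gene, was at 4.07, 5.06 and 4.91 in mutant fat bodies, against 3.28, 4.22 and 5.67 in control fat bodies. It was weakly expressed there, and the 3 controls spanned a wider range than the mutants and enclosed them. The change of 0.29 on the log2 scale (standard error 0.49, 95% interval −0.80 to 1.38, limma adjusted p = 0.76) leaves a wide range of changes possible. It was 0.82 with array weights (adjusted p = 0.22) and 0.08 with quantile normalization, and ran from −0.27 without control replicate 5 to 0.93 without control replicate 7. In whole animals *LpR2* was at 8.39, 8.63 and 8.82 in mutants, against 8.96, 8.95 and 8.72 in controls. The highest mutant sample exceeded the lowest control sample, and the log2 fold change was −0.26 (95% interval −1.35 to 0.83, adjusted p = 0.98). The width of this interval comes from the spread of *LpR2* in fat bodies, with which the model pools its variance. Control fat body replicate 7, which had the most *LpR2* in fat bodies, also had the highest summed muscle (12.3), neuron (8.99) and cuticle (6.12) markers of the 6 fat body samples. Its summed fat body (18.83) and gonad (8.99) markers were the highest of the 6 as well. In fat bodies the muscle sum was led by *Tm1* and the neuron sum by *Syt1* (means of 7.87 in mutants and 8.20 in controls). The neuron genes *nSyb*, *brp*, *Syn* and *para* had means below 3.32 there in both genotypes. The part of these markers in the *LpR2* value was not tested.

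**Figure D2:**
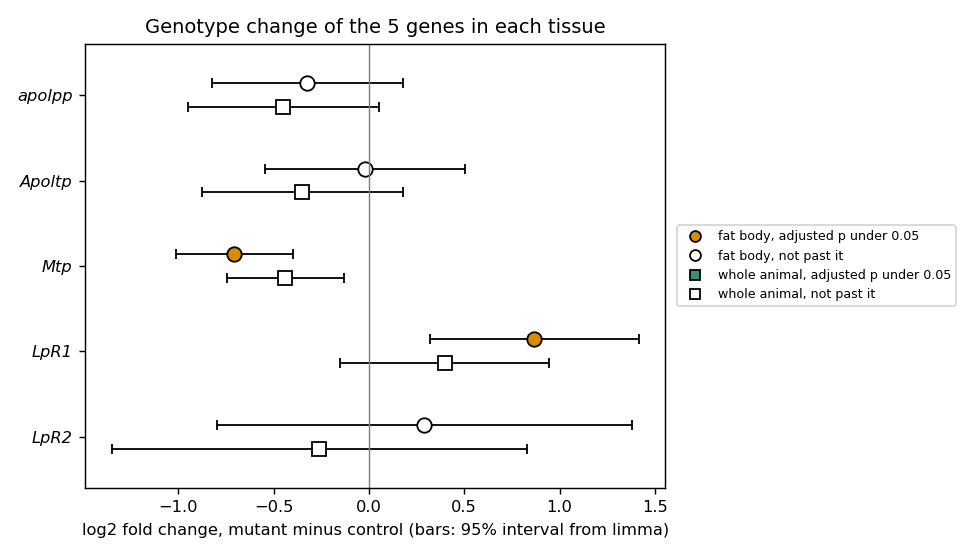
Log2 fold change of mutants over controls (x axis) for each gene, in fat bodies (circles) and whole animals (squares), with 95% intervals from limma as bars. Filled symbols passed an adjusted p of 0.05. *Mtp* at −0.71 and *LpR1* at 0.87 in fat bodies are filled, and no whole animal symbol is.

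The changes in fat bodies and whole animals were not shown to differ for any of the 5 genes. The interaction of genotype and tissue passed an adjusted p of 0.05 for 10.2% of all genes tested and for 0 of the 5, and 0 of the 5 had an unadjusted p under 0.05 in limma. The difference between the changes, fat body minus whole animal, was −0.27 for *Mtp* (95% interval −0.70 to 0.16, adjusted p = 0.47) and 0.47 for *LpR1* (95% interval −0.30 to 1.25, adjusted p = 0.48). It was 0.13 for *apolpp*, 0.33 for *Apoltp* and 0.55 for *LpR2*, with adjusted p-values of 0.87, 0.63 and 0.70. Leaving out single samples gave differences from −0.43 (without fat body mutant replicate 1) to −0.13 (without fat body mutant replicate 4) for *Mtp*, from 0.20 to 0.72 for *LpR1* without the same samples, and from 0.09 to 0.48 for *Apoltp* (without whole animal mutant replicate 1 and fat body control replicate 7).

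Differences between genes of the same sample do not depend on a single scaling factor per sample, though quantile normalization can change them. Of these differences, 4 were examined after the values were seen. They are not corrected for gene length, so that only their change between groups can be read. In fat bodies the log2 difference of *Mtp* minus *Apoltp* was −1.71, −1.66 and −1.72 in mutants, against −0.91, −0.82 and −1.29 in controls. The mutants were within 0.1 of each other and lay below all controls, with a mean change of −0.68 (two-sided exact permutation test, p = 0.1, the smallest that 3 samples against 3 allow). *Mtp* minus *apolpp* also lay lower in all mutant fat bodies, at −5.13 ± 0.13 against −4.75 ± 0.24 in controls (SD, n = 3, exact permutation p = 0.1), but the closest samples were −5.04 in mutants and −5.02 in controls.

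*Apoltp* minus *apolpp* was tightly held within control fat bodies. It was at −3.34, −3.41 and −3.56 in mutant fat bodies, against −3.77, −3.73 and −3.72 in control fat bodies, a change of 0.30 with no overlap (exact permutation p = 0.1). With quantile normalization within tissues, the separate fat body changes were 0.05 for *Apoltp* and 0 for *apolpp*, so this change depends on the normalization. None of these 3 differences was separated by genotype in whole animals, where their changes were 0.01 for *Mtp* minus *apolpp*, 0.10 for *Apoltp* minus *apolpp* and −0.09 for *Mtp* minus *Apoltp*. Between the receptors, *LpR1* minus *LpR2* was −0.03, −0.18 and −0.58 in mutant whole animals, against −0.98, −1.03 and −0.75 in control whole animals. *LpR1* minus *LpR2* was thus higher in whole mutants than in whole controls, by 0.66 (exact permutation p = 0.1), while in fat bodies the groups overlapped.

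**Figure D3:**
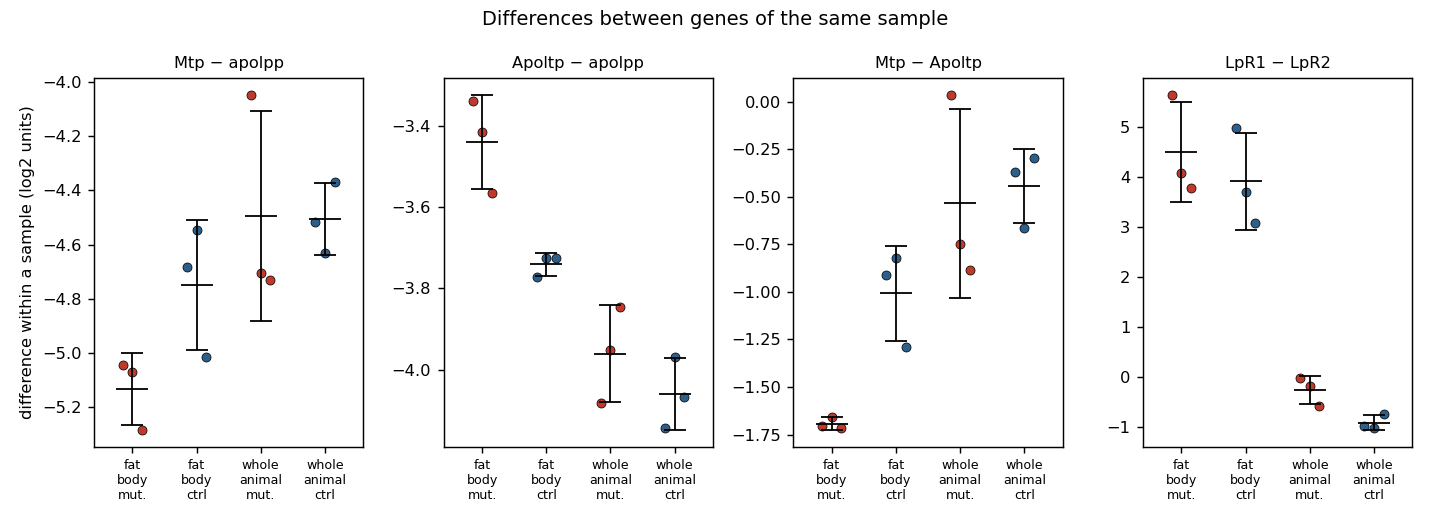
Difference between the rlog values of 2 genes in the same sample (y axis, log2 units) for 4 gene pairs, in mutant (red) and control (blue) fat bodies and whole animals. Points are samples, wide ticks are means and bars are 1 SD (n = 3). In fat bodies *Mtp* minus *Apoltp* lies near −1.69 in mutants and −1.01 in controls, and in whole animals *LpR1* minus *LpR2* lies at −0.26 in mutants and −0.92 in controls.

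The 3 genes of lipoprotein assembly stood higher in dissected fat bodies, and the receptors divided. In mutants *apolpp* was higher in fat bodies than in whole animals by 2.44 on the log2 scale, *Apoltp* by 2.96 and *Mtp* by 1.80. In controls the differences were 2.31, 2.63 and 2.07. The highest limma adjusted p among these 6 differences was 3.8e-06. *LpR2* went the other way, by −3.93 in mutants and −4.48 in controls (adjusted p = 2.9e-05 and 9.5e-06), that is 15.3-fold and 22.4-fold lower in fat bodies. *LpR1* stood 0.82 higher in fat bodies than in whole animals of mutants (95% interval 0.27 to 1.37, adjusted p = 0.012) and 0.35 higher in controls (95% interval −0.20 to 0.90, adjusted p = 0.22). Thus 4 genes were higher and 1 lower in fat bodies of mutants, and 3 were higher and 1 lower in those of controls. A difference between tissues was common, with 24.4% of all genes higher and 46.0% lower in mutants (70.4% in all), and 24.9% higher and 46.8% lower in controls (71.7% in all). In each genotype 4 of the 5 genes passed the treat test, which 35.9% of all genes passed in mutants and 36.8% in controls. Centring each sample on its median adds 0.86 to every tissue difference in mutants and 0.90 in controls, and the signs of all 10 differences held. With it *LpR1* was 1.25 higher in control fat bodies than in control whole animals (adjusted p = 0.00051, against 0.081 to 1 over the other alternatives).

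Levels of different genes were compared per length, as the log2 value minus the log2 of the median annotated transcript length in kb. In mutant fat bodies the order was *apolpp* (14.96 on this scale), *Mtp* (11.65), *Apoltp* (11.16), *LpR1* (7.31) and *LpR2* (2.65), and in control fat bodies it was the same, at 15.29, 12.36, 11.18, 6.44 and 2.36. *apolpp* ranked 63rd per length in mutant and 34th in control fat bodies among the 10059 genes with a length. In whole animals *apolpp* (12.52 in mutants and 12.97 in controls), *Mtp* (9.85 and 10.29) and *Apoltp* (8.20 and 8.55) kept this order. *LpR2* (6.85) stood above *LpR1* (6.09) in control whole animals whichever annotated transcripts were used for the length. In mutant whole animals the receptors were at 6.59 and 6.49, and their order depended on the transcript chosen.

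The genes most like each of the 5 were found by the root mean square difference over the 12 samples, after each gene's mean was subtracted. These values are a description with no test. The 3 nearest to *apolpp* were *LanA* (0.09 log2 units), *LanB2* (0.18) and *Col4a1* (0.19), and those nearest to *Apoltp* were *vkg* (0.18), *Col4a1* (0.20) and *LanA* (0.25). These genes encode laminin and collagen IV chains, large secreted proteins of the basement membrane. *Apoltp* itself was the 11th gene in the list for *apolpp*. *LanA*, like *apolpp*, had more transcript in fat bodies, by 2.45 in mutants and 2.27 in controls. Its genotype changes of −0.26 in fat bodies (adjusted p = 0.49) and −0.44 among whole larvae (adjusted p = 0.58) did not pass the test.

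The genes nearest to *Mtp* were *CG5493* (0.11), *Acer* (0.12) and *Gbp2* (0.13). *Acer*, a gene of the angiotensin-converting enzyme family, and *Gbp2*, which encodes a growth-blocking peptide secreted by the fat body, fell in mutant fat bodies by 0.68 and 0.93 (adjusted p = 0.00048 and 0.00013). Those nearest to *LpR1* were *cnn* (0.18), *Pcyt2* (0.22) and *rdog* (0.23), and those nearest to *LpR2* were *CG1812* (0.35), *Cyp28d2* (0.38) and *CG9801* (0.39). *Pcyt2* encodes an enzyme of phosphatidylethanolamine synthesis. Its change of 0.80 in fat bodies did not pass the test (adjusted p = 0.074), and *cnn*, which encodes a centrosome protein, rose by 0.91 (adjusted p = 0.014), as did *rdog* by 0.71 (adjusted p = 0.020).

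Other genes of lipoprotein making and uptake were taken from lists of 59 genes, of which 57 were in the table and 52 were tested. In fat bodies 13 of the 52 were lower and 3 higher in mutants at an adjusted p under 0.05, beside 11.2% lower and 11.1% higher among all genes. The lists were chosen with earlier results of these data known, so these counts are not independent of that choice. Of the 52, 13 had means below 3.32 in fat bodies of both genotypes, and none of these passed there. Over the other 39 the counts were the same, beside 14.1% lower and 14.2% higher among the 7490 genes that reached 3.32 in fat bodies. The median log2 fold change of the 39 was −0.11, against −0.02 for the 7490. In whole animals 0 were lower and 1 higher (limma), beside 2.56% and 0.725% of all genes, with a median of −0.10 against 0.01.

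Genes for folding, cleavage and export of secreted lipoproteins accounted for 6 of the 13 falls in fat bodies, out of 14 listed and tested, and none of the 14 rose. Among all genes tested 11.2% fell and 11.1% rose in fat bodies. The largest fall on this list was that of *Pdi*, which encodes protein disulfide isomerase, known in mammals as the partner subunit of MTP. *Pdi* averaged 14.66 in mutant and 15.65 in control fat bodies and fell by 0.99 (standard error 0.12, adjusted p = 0.00016). The chaperone genes *Gp93* (−0.78), *Hsc70-3* (−0.76) and *Calr* (−0.61) of the endoplasmic reticulum fell as well (adjusted p = 0.0026, 0.0010 and 0.0018), as did *Fur2*, a furin protease gene (−0.57, adjusted p = 0.039), and *Sec31*, a coat protein of the vesicles that leave the endoplasmic reticulum (−0.22, adjusted p = 0.044). *Sar1*, *Tango1*, *Sec23*, *Sec24AB*, *Sec24CD*, *Sec13*, *Surf4* and *Fur1* did not pass the test in fat bodies, with log2 fold changes from −0.31 to 0.21, and none of the 14 passed in whole animals.

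Of the other LDL receptor family genes 5 of 7 were tested, and *LRP1* and *arr* fell in mutant fat bodies, where 11.2% of all genes fell. *LRP1*, a large endocytic receptor, averaged 10.35 in mutant and 11.31 in control fat bodies (log2 fold change −0.96, standard error 0.30, adjusted p = 0.040). *arr*, the Wnt co-receptor arrow, averaged 7.30 in mutant and 8.12 in control fat bodies (−0.83, standard error 0.16, adjusted p = 0.0037). *mgl*, the megalin gene, *Lrp4* and *cue* did not pass the test in either tissue, and neither *LRP1* nor *arr* did in whole animals. Of 10 genes for receptor folding and endocytosis, *ced-6*, an adaptor of phagocytic receptors, rose by 0.45 (adjusted p = 0.020) and *Rab5*, a GTPase of early endosomes, by 0.26 (adjusted p = 0.036). Among all genes tested 11.1% rose in fat bodies. *Dab*, which encodes the endocytic adaptor Disabled, fell by 1.39 (adjusted p = 0.023) and averaged 4.36 in mutant and 5.75 in control fat bodies. *boca*, the chaperone that LDL receptor family proteins need, had a log2 fold change of −0.26 (adjusted p = 0.14).

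Among 21 tested genes of other lipid uptake and carriage, 4 fell and 1 rose in mutant fat bodies, beside 11.2% lower and 11.1% higher among all genes. Most of the 21 had means below 3.32 in fat bodies of both genotypes, among them *Npc1b*, *Npc2b*, *NLaz* and *mag*, and none of these passed the test there. Some still had large estimates with wide errors. These were −1.40 for *Npc2b* (standard error 0.74, limma adjusted p = 0.22) and −1.53 for *ninaD* (standard error 0.86, adjusted p = 0.25). *Fatp3*, which encodes a fatty acid transport protein, averaged 6.28 in mutant and 8.52 in control fat bodies and fell by 2.24 (standard error 0.20, adjusted p = 1.6e-05). *Karl*, a lipocalin gene, fell by 1.45 (adjusted p = 0.00099), *fabp*, which encodes a fatty acid binding protein, by 1.23 (adjusted p = 0.00014) and *Npc2a*, a sterol carrier gene, by 0.76 (adjusted p = 0.020). *pes*, a class B scavenger receptor gene, rose by 0.64 (adjusted p = 0.0026). In whole animals *NLaz*, another lipocalin gene, averaged 4.92 in mutants and 3.76 in controls and rose by 1.16 (adjusted p = 0.033), while in fat bodies it was near the floor of the scale in both genotypes. Of the large lipid transfer and yolk proteins, *cv-d* averaged 13.08 in mutant and 12.77 in control fat bodies and did not pass the test (log2 fold change 0.31, adjusted p = 0.083), and the other gene tested, *Yp3*, did not pass either.

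**Figure D4:**
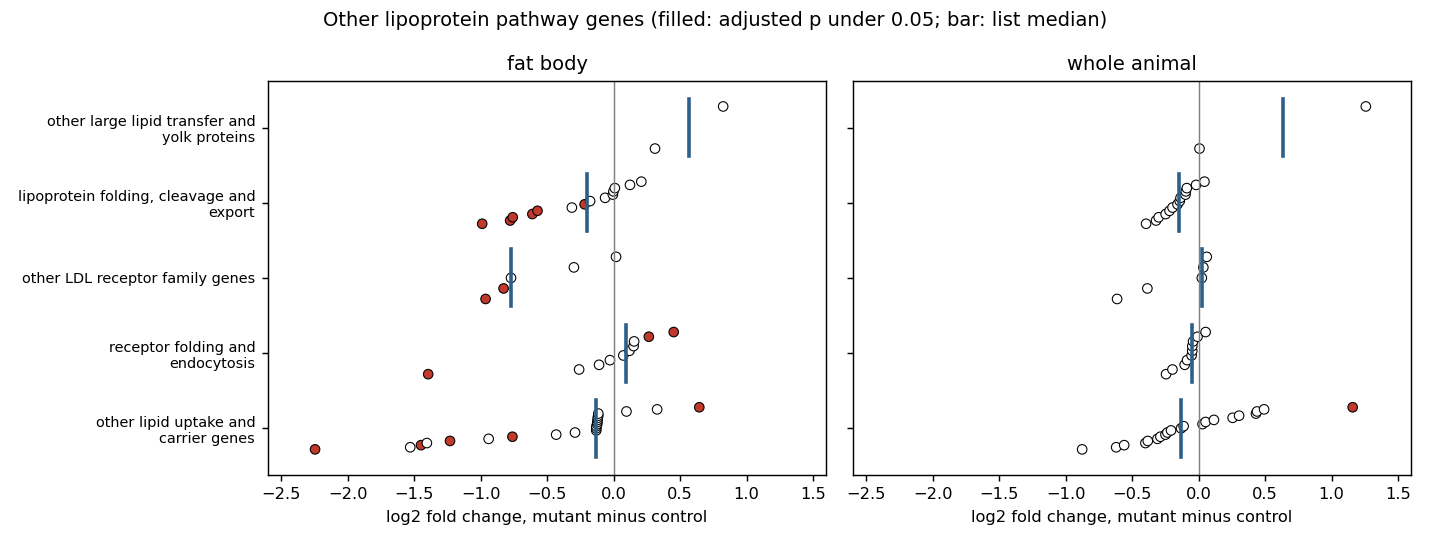
Log2 fold change of mutants over controls (x axis) for the 52 tested genes of 5 lists (rows), in fat bodies (left) and whole animals (right). Each point is a gene, filled where the adjusted p was under 0.05, and the vertical bar is the list median, which in fat bodies includes 13 genes with means below 3.32. In fat bodies 13 filled points lie below 0 and 3 above, and in whole animals 1 point, *NLaz* at 1.16, is filled.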

How the data were processed

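The authors quantified transcripts with Salmon 1.10.2 from paired-end libraries of poly-A RNA made with a stranded kit, summed them to genes with tximport, and deposited log2 values from the rlog function of DESeq2 1.42.0, with genotype, tissue and their interaction in the design. Depth per sample is unknown from these values, so the precision is that of the replicates. No further normalization was applied.

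Of the 24134 genes, 10069 reached a group mean of 3.32 and were fitted in R 4.3.3 with limma 3.58.1, with one mean for each of 4 groups of 3 samples and a variance trend. Contrasts were tested against no change with Benjamini-Hochberg adjustment over all genes. The script was tested on simulated data. The tests in the study's methods (DESeq2 with apeglm) need counts, which were not used here. Members, gene lists and tests were chosen with earlier results of these data known. Named genes are the 5 members, *ERR*, the list genes with an adjusted p under 0.05 in a tissue, and the 3 genes nearest each member. Other list genes given with values that did not pass were added after their values were seen. Gene lengths and positions come from Ensembl 115 (BDGP6.54). Replicate numbers 1 to 3 are shared by mutant and control whole animals, and 1 and 2 by mutant fat bodies and mutant whole animals. The main model did not pair samples by these numbers. Alternatives were no filter, a filter at 5.64 (the log2 of 50), tissues fitted alone, array weights, no variance trend, median centring, quantile normalization within tissues, treat against a log2 fold change of 1, a replicate block, and leaving out each sample. Figures were drawn with matplotlib 3.10.9.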

Additional observations from a re-analysis of the deposited data

Results flagged for a closer look

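The genotype change differed between fat bodies and whole animals, by limma's interaction test at an adjusted p under 0.05, for 6 of the 52 tested genes of the lipoprotein and lipid uptake lists (11.5%, near the 10.2% of all genes tested) and for none of the 5 lipoprotein and receptor genes. The difference, fat body change minus whole animal change on the log2 scale, was −2.74 for *Fatp3* (standard error 0.28, adjusted p = 2e-04), whose change in fat bodies was −2.24, with 0.49 for whole animals. It was −1.27 for *NLaz* (adjusted p = 0.0496), which was close to the floor of the scale in fat bodies (means of −0.99 in mutants and −0.88 in controls). It could hardly change there, and its difference restates the whole animal rise of 1.16. It was −0.89 for *arr* (adjusted p = 0.033), −0.85 for *fabp* (adjusted p = 0.026) and −0.67 for *Pdi* (adjusted p = 0.031). The difference was 0.70 for *ced-6* (adjusted p = 0.025), whose fat body change was 0.45 and whole animal change −0.24.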

How the results depend on the processing

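Of the results for the 5 genes, the fall of *Mtp* in fat bodies held its direction under every alternative run. With each tissue fitted alone its log2 fold change stayed at −0.71 and lost the call, as in the treat test (−0.71). *LpR1* in fat bodies stayed at 0.87 and lost the call with no filter, with fat bodies alone and in the treat test. The number of the 5 genes called in fat bodies, 2, became 1 with no filter, 0 with tissues alone and 0 in the treat test, and ranged from 1 to 2 with a sample left out. In whole animals 0 were called, against 2 with whole animals alone (*Mtp* −0.44, *LpR1* 0.40) and 1 with array weights (*Mtp* −0.46), and 0 to 1 with a sample left out, where *Mtp* ranged from −0.50 to −0.40. With tissues fitted alone the estimates stayed the same and the standard errors changed. For *LpR1* the standard error went from 0.25 to 0.09 in whole animals and to 0.32 in fat bodies. For *Mtp* it went from 0.14 to 0.09 in whole animals and to 0.18 in fat bodies. The treat test cannot call an estimate below 1 in size. The cause of the other changes in calls was not tested. Quantile normalization gave 0 for *apolpp* and 0.0474 for *Apoltp* in fat bodies, since *apolpp* kept the same rank in every fat body sample. With a sample left out, the fat body changes ranged from 0.60 to 1.11 for *LpR1*, −0.20 to 0.13 for *Apoltp* (without control replicates 6 and 7) and −0.27 to 0.93 for *LpR2* (without control replicates 5 and 7), and the interaction from −0.0584 to 0.27 for *apolpp* and −0.0052 to 1.19 for *LpR2*. With the replicate block in whole animals alone, *Mtp* had −0.44 (adjusted p = 0.073) and *LpR1* 0.40 (adjusted p = 0.12), and 0 of 5 genes were called. Same-numbered samples did not deviate together (correlations −0.02, −0.05 and −0.13). Deviations from means of 3 samples cannot exclude that these samples were paired. Mutant fat bodies and whole animals share the numbers 1 and 2 (correlations −0.08 and −0.09), and a block on these 4 samples, added after seeing the data, kept the call and direction of all 5 tissue differences. Weak expression of *LpR2* in fat bodies limits what can be said of its change there.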
